A study of Mus musculus with 39 samples.

Results

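The genes described here encode the nuclear part of the mitochondrial respiratory chain, complexes I to V, with the complex I assembly factors that share the Nduf prefix. They were taken as every row of the raw count table whose symbol starts with Nduf followed by a, b, c, s or v, with Uqcr, with Cox and a digit from 4 to 8, or with Atp5, or is one of the 4 Sdh subunit symbols. Symbols marked as pseudogenes with -ps were left out. Of 94 matching symbols 92 remained, among 16144 genes in the table. GENCODE M21 lists 2 of them, Ndufb4c and Ndufa11b, as processed pseudogenes, and they were kept because the choice went by symbol. Complex I and its assembly factors had 48 genes, complex II 4, complex III 8, complex IV 15 and complex V 17. Ndufa4, named for complex I but now assigned to complex IV, was counted with complex IV, whereas its paralogue Ndufa4l2 was left with complex I.

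In the respiratory chain, complexes I and II pass electrons from NADH and succinate to ubiquinone, complex III passes them on to cytochrome c, and complex IV hands them to oxygen. The proton gradient built on the way drives complex V, the ATP synthase. All of these complexes except complex II also hold subunits encoded in mitochondrial DNA, so that nuclear and mitochondrial genes must be expressed together. Microglia, the resident macrophages of the brain, shift between oxidative phosphorylation and glycolysis when activated.

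Primary microglia came from newborn C57BL/6 mice, were shaken off an astrocyte layer and were used at passage 1. Donors, plated at about 250000 per well in 24-well plates, received 1 µM alpha-synuclein carrying the dye Atto-488 for 14 h. Acceptors, typically 6000000 cells in a T25 flask, were stained with CellTracer Violet for 15 min, and both populations were then kept together without touching for 15, 30, 60, 150 or 300 min. Each population was also sampled at 0 min, beside a control at that time, which made 13 groups of 3 libraries, 39 in all. The names of all donor and acceptor groups, those at 0 min included, carry an undefined TW. Alpha-synuclein, vessel, plating density and dye differ together between donors and acceptors and cannot be told apart. The sources used here name neither the control's vessel nor whether the 3 libraries of a group came from separate cultures, so the p-values measure the spread between libraries, which may be technical.

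Levels are CPM, the tags of a gene's 3′ end relative to all tags of the library, scaled with TMM factors. Each transcript gives a tag from its end whatever its length, so levels of different genes can be set side by side, as far as each 3′ end was captured. A gene is called where the adjusted p of edgeR's quasi-likelihood test, fitted over all genes past the expression filter, was under 0.05, and only called genes are said to be higher or lower, to rise or to fall. Of the 92 genes, 91 entered the test. The one under the filter was Ndufa4l2, a paralogue of Ndufa4 known for its induction by hypoxia, with 0 to 6 reads per library.

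Total reads per library were 8649169 to 15910662, and the 92 genes took between 0.707% and 1.14% of a donor library, 1.09% and 1.66% of an acceptor library, and 1.29% and 1.41% of a control library. Microglia markers, all 10 present in each population, summed to between 3731 and 5836 CPM in donors, against 9532 to 29949 CPM for acceptors and 10885 to 11211 CPM for the control. Astrocyte markers summed to between 6.17 and 21.8 CPM in donors, against 13.02 to 40.2 CPM for acceptors and 15.0 to 29.4 CPM for the control, with Aqp4 at 0 in the control and in donors. Oligodendrocyte lineage markers summed to between 29.4 and 124 CPM in donors, against 87.2 to 187 CPM for acceptors and 88.2 to 162 CPM for the control. Neuron markers summed to between 0.969 and 10.7 CPM in donors, against 2.22 to 24.3 CPM for acceptors and 3.75 to 17.3 CPM for the control, with Nefl at 0 in the control. Over the 6 times 5 of 6 astrocyte, 4 of 8 oligodendrocyte lineage and 3 of 5 neuron markers tested were called lower in donors than in acceptors. Of 10 microglia markers, 8 were called lower and 1 higher. Fibroblast and vascular markers (6 of 8 in the table) ran the other way in their sum, at 24.3 to 51.7 CPM for donors. The sum was 3.49 to 10.6 CPM for acceptors and 3.88 to 7.81 CPM for the control, where Dcn was at 0. Of these 6 markers, 3 were called higher and 1 lower in donors than in acceptors over the 6 times. The part of these differences in the results was not tested. In bulk RNA, fewer cells of a type and less RNA per cell cannot be told apart.

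A few libraries stood apart within their groups, and they did so in the respiratory chain genes too. The first component of the deviations from the group means held 32.4% of their variance over 7090 genes with a mean over 10 CPM, and 49.4% over the 80 respiratory chain genes among them taken alone. These 2 shares come from sets of very different size and cannot be set against each other. Acceptors at 300 min replicate 2 had the highest score, 0.57, followed by donors at 300 min replicate 1 with 0.32 and donors at 60 min replicate 3 with 0.26. In that acceptor library Atp5md, a small membrane subunit of complex V, had 10.7 CPM against 93.5 and 69.9 CPM in the other two libraries of its group, and the complex II anchor Sdhc had 17.03 CPM against 105 and 92.9 CPM. Ndufa2, an accessory subunit of complex I, went the other way there, with 1602 CPM against 519 and 597 CPM. The GC content of the last 500 transcript bases was taken for the 76 of these 80 genes whose symbol matched a GENCODE coding transcript. Their loadings on the component of the 80 genes had a Spearman rho of 0.55 with it, a description over genes that share the same libraries. Atp5md and Ndufb4c, with the lowest loadings (−0.363 and −0.362), had no match and are left out. Over 6878 of all genes the rho was 0.37, and library scores on the 2 components correlated by 0.97. The difference between donors and acceptors had a rho of −0.16 with the same GC content over 86 genes.

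**Figure D1:**
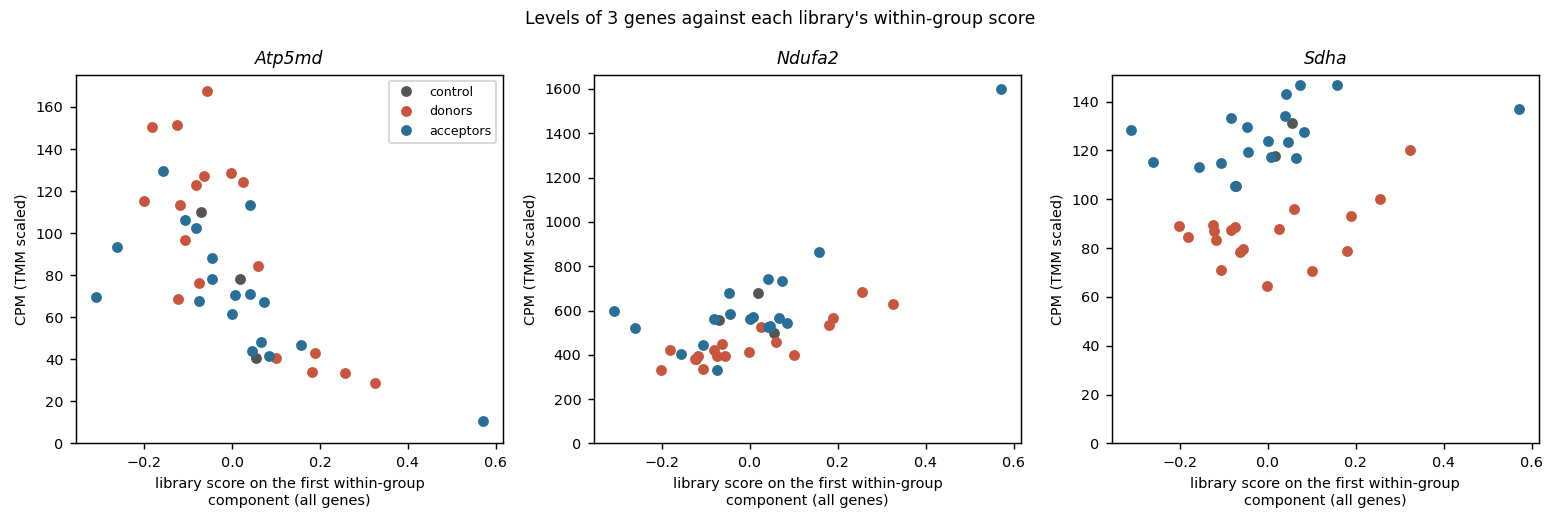
Levels of Atp5md, Ndufa2 and Sdha in CPM (vertical axes, linear, from 0) against each library's score on the first component of within-group deviations over all genes (horizontal axis, no unit); each point is 1 of the 39 libraries. Atp5md falls to 10.7 CPM and Ndufa2 reaches 1602 CPM in the library with the highest score, while Sdha separates donors from acceptors over most of the range of scores.

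Transcript levels within a complex spanned a wide range although the proteins assemble in fixed ratios. Means over all 39 libraries ran from 2.21 CPM (Sdhd) to 282 CPM (Sdhb) in complex II and from 57.7 CPM (Uqcrfs1, the Rieske iron-sulfur protein) to 396 CPM (Uqcrq) in complex III. In complex V they ran from 83.2 CPM (Atp5md) to 365 CPM (Atp5l, membrane subunit g). The low end of complex II is uncertain, since Sdhd had few and uneven reads, at most 311 in a library, and a median of 1.31 CPM. The highest of all genes were Ndufa2 with 544 CPM and Cox4i1, the common form of complex IV subunit 4, with 513 CPM. Complex I assembly factors were low, between 4.42 CPM (Ndufaf5) and 36.9 CPM (Ndufaf8).

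Isoform pairs were uneven in level. The ubiquitous Cox6a1 averaged 443 CPM and the heart and muscle form Cox6a2 7.65 CPM, Cox6b1 averaged 327 CPM and the testis form Cox6b2 0.46 CPM, and Cox7a2 averaged 279 CPM against 2.54 CPM for the heart and muscle form Cox7a1. The 3 genes for the identical c-ring peptide of ATP synthase were all expressed, Atp5g3 at 286 CPM, Atp5g2 at 156 CPM and Atp5g1 at 98.1 CPM. Of the remaining isoform sets, Cox8a averaged 421 CPM and Cox7b 137 CPM, while Cox4i2, Cox7b2, Cox8b and Cox8c are not among the rows analysed here.

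For 2 subunits the row with the gene's own name was far below a row named as its pseudogene. Cox7c averaged 14.5 ± 8.15 CPM (SD, n = 18) in donors and 14.1 ± 7.36 CPM (SD, n = 18) in acceptors, whereas the row Cox7c-ps1, outside the gene set, averaged 119 and 156 CPM. Ndufs5 averaged 1.68 and 1.59 CPM against 73.7 and 88.9 CPM for Ndufs5-ps. The sources used here do not say how reads shared by a gene and its copies were assigned, and the part of such sharing in these levels was not tested. Values of Cox7c and Ndufs5, of Ndufb4 with its near namesake Ndufb4c, of Ndufa11 with Ndufa11b, and of other genes with processed copies are therefore uncertain. Sdhd, with 0 to 311 reads per library and a median of 1.07 CPM in donors and 1.31 CPM in acceptors, is similarly low for a subunit of a complex whose Sdhb exceeded 194 CPM in every library.

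The first question was how the alpha-synuclein-treated donors differed from the control before co-culture. In donors at 0 min, 7 of the 91 genes were called, 6 lower and 1 higher. The lower ones were the c-ring gene Atp5g2, the complex I accessory subunit Ndufa12, the complex I assembly factors Ndufaf4 and Ndufaf6, the flavin-carrying catalytic subunit of complex II Sdha, and Cox6a2. The higher one was Ndufs4, an accessory subunit of the NADH-oxidising arm of complex I whose loss causes Leigh syndrome in humans. Of all genes tested 19.7% were called and 9.34% were called lower, so that the share of respiratory chain genes called, 7.69%, lay below the background and the share called lower, 6.59%, near it. The median log2 difference of the 91 genes was −0.20, against −0.03 for all genes.

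Ndufs4 stood at 49.7, 50.7 and 58.8 CPM in the control libraries and at 124, 78.5 and 73.7 CPM in the donor libraries, which lay above every control library. The fitted difference was 0.79 ± 0.23 (log2, SE), a 1.73-fold higher level (edgeR adjusted p = 0.0133). With Atp5pb, Cox5a and Uqcrb it is 1 of the 4 genes whose donor mean exceeded the acceptor mean at all 6 times.

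Atp5g2 stood at 210, 222 and 156 CPM in the control and at 146, 99.1 and 75.2 CPM in donors, with no overlap, a 1.83-fold lower level (log2 −0.87 ± 0.21, SE; edgeR adjusted p = 0.00333). Ndufa12 stood at 94.5, 88.5 and 94.1 CPM in the control and at 61.0, 55.8 and 46.2 CPM in donors (log2 −0.76 ± 0.24, SE; edgeR adjusted p = 0.0227). Every donor library of both genes lay below every control library. Sdha stood at 118, 131 and 105 CPM in the control and at 87.8, 89.5 and 70.6 CPM in donors (log2 −0.51 ± 0.17, SE; edgeR adjusted p = 0.0303), again without overlap.

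Ndufaf4, which helps build the peripheral arm of complex I, stood at 15.7, 14.0 and 13.7 CPM in the control and at 9.19, 7.67 and 6.65 CPM in donors (log2 −0.88 ± 0.25, SE; edgeR adjusted p = 0.0103). Ndufaf6 stood at 10.8, 4.50 and 6.82 CPM in the control and at 3.39, 2.06 and 2.88 CPM in donors (log2 −1.41 ± 0.45, SE; edgeR adjusted p = 0.0246). Both had donor libraries wholly below the control libraries, on 26, 29 and 41 reads in the donor libraries for Ndufaf6. Cox6a2 stood at 11.8, 6.36 and 12.1 CPM in the control and at 6.70, 4.19 and 3.11 CPM in donors (log2 −1.11 ± 0.40, SE; edgeR adjusted p = 0.0455), and the groups overlapped by 1 library on each side.

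The other large fitted differences between donors and control at 0 min did not pass the test. They were −1.20 for Ndufaf7 (edgeR adjusted p = 0.0607) and −0.96 for Ndufaf2 (edgeR adjusted p = 0.106), both assembly factors, and 0.47 for the assembly factor Ndufaf3 (edgeR adjusted p = 0.273) and 0.56 for Cox7a1 (edgeR adjusted p = 0.507). Sdhd and Ndufs5 had fitted differences of 1.62 and 1.32 with SEs of 1.23 and 1.38. Cox6b2 had 0, 1 and 0 reads in the donor libraries and 0, 6 and 16 in the control, too few to give a fold.

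The counts varied with the libraries in the fit. With the donors and the control alone in the fit, 1 gene was called, Ndufa12, and leaving out control replicate 1 left 2, Atp5g2 and Ndufaf4, whereas leaving out replicates 1, 2 and 3 of the donors at 0 min gave 13, 4 and 3. With libraries scaled to total counts 37 genes were called, all lower, beside 20.1% of all genes called lower and 5.67% higher, and Ndufs4 kept its sign, at 0.42 on the log2 scale, without passing the test. Without the 4 libraries with the fewest genes detected, a choice made after seeing the data, 13 genes were called, 12 of them lower.

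**Figure D2:**
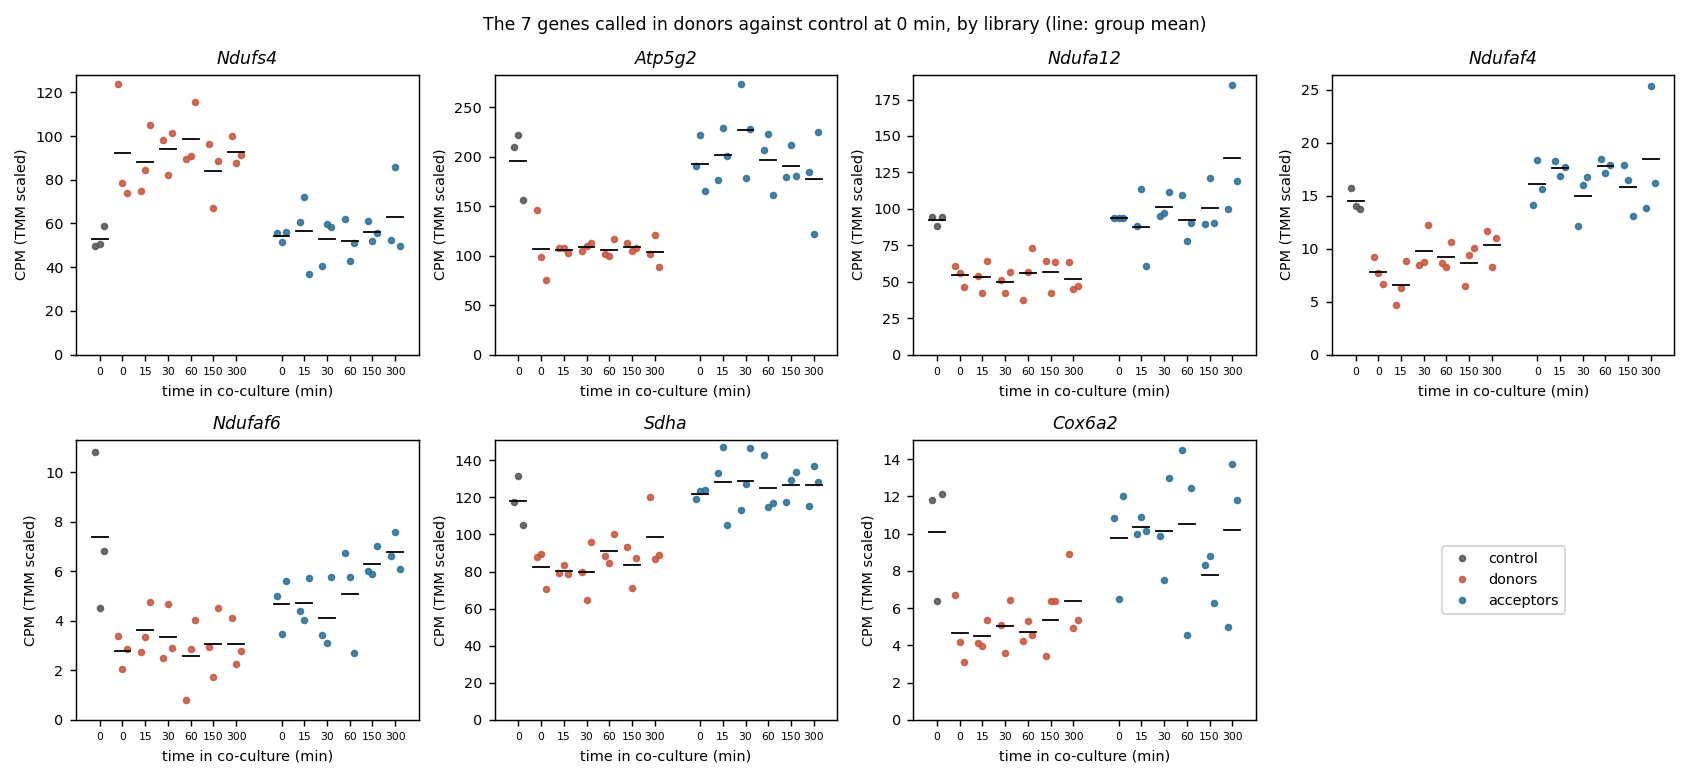
Levels in CPM (vertical axes, from 0) of the 7 genes called in donors against the control at 0 min, in each of the 39 libraries by time in co-culture (horizontal axis, min); points are libraries and lines are means of 3. Ndufs4 lies between 66.9 and 124 CPM in donors and between 36.9 and 85.9 CPM in acceptors, and the donor means of the other 6 genes lie below the acceptor means at every time.

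The promoters of 5 of the 7 genes are shown, to place the motifs searched for. Ndufaf6 and Cox6a2 have no entry in the promoter table and were not searched. Each promoter runs from 250 bases before to 50 after the RefSeq start, build GRCm38.p6, 5′ to 3′ on the gene's own strand, with motif matches in capitals. Ndufs4 lies at chr13:114388045-114388344 (minus strand), Atp5g2 at chr15:102670998-102671297 (minus), Ndufa12 at chr10:94198785-94199084 (plus), Ndufaf4 at chr4:24897833-24898132 (plus) and Sdha at chr13:74350191-74350490 (minus). In Ndufs4 the capitals mark the YY1 motif. In the other 4 they mark the NRF1 motif, and in Atp5g2 and Sdha also the shorter HIF motif.
Ndufs4: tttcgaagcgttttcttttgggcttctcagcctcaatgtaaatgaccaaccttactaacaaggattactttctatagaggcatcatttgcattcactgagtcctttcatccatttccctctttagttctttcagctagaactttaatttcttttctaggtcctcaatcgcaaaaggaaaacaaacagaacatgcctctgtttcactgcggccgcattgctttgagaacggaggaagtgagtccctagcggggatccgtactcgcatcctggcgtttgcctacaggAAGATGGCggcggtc
Atp5g2: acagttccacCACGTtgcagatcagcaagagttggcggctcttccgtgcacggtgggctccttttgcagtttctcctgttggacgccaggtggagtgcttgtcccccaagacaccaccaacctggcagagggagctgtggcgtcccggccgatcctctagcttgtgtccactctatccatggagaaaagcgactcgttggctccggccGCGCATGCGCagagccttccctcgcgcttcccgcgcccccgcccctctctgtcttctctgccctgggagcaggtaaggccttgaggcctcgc
Ndufa12: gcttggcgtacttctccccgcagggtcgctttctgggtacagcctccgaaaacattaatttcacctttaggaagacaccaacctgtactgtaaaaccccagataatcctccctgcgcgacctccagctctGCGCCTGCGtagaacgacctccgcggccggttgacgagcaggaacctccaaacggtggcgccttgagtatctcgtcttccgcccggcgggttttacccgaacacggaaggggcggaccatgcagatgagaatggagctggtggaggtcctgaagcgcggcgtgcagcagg
Ndufaf4: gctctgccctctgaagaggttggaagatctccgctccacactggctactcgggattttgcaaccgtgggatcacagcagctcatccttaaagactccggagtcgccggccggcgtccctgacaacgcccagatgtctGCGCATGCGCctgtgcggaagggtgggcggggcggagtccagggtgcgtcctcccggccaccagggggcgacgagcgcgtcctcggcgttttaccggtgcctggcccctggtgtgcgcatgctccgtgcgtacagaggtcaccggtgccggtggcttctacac
Sdha: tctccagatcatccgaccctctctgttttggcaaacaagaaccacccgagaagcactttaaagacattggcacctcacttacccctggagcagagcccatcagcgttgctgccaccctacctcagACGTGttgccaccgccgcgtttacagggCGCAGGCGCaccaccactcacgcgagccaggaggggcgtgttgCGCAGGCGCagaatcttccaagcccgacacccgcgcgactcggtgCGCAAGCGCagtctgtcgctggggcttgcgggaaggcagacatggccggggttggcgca

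NRF1, the ETS factor GABPA and YY1 are known regulators of nuclear respiratory genes, and HIF factors of their response to low oxygen. RefSeq promoters were found for 75 of the 92 genes. The NRF1 motif GCGCNTGCG, searched on both strands like the others, was present in 26 of 75 genes (34.7%), against 7.12% of all 27025 genes with a promoter. The ETS motif CCGGAAG was present in 25.3% against 9.93%, the YY1 motif AAGATGGC in 14.7% against 3.19%, and the ERR motif TCAAGGTCA in 2 genes, Atp5g3 and Sdhd (2.67%), against 0.466%. The HIF motif ACGTG was present in 24% against 21.8%, about the share of all promoters. These matches describe the letters in the window and say nothing of binding. The background holds all genes with a promoter, expressed here or not, whereas 91 of the 92 genes passed the expression filter, so the 2 sets are unlike. In GENCODE M21 (GRCm38), Ndufs4 spans chr13:114287795-114388258, Atp5g2 chr15:102662864-102672352, Ndufa12 chr10:94198720-94221443, Ndufaf4 chr4:24898083-24905001 and Sdha chr13:74322254-74350280.

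No difference between acceptors at 0 min and the control passed the adjusted threshold. Of the 91 genes 0 were called and 0 had an unadjusted p under 0.05, and of all genes 0% were called by edgeR and 263 had an unadjusted p under 0.05. DESeq2 and limma voom called 0 of them as well, and 0 of all genes. The 263 are below the share of 0.05 that 13034 genes without a difference would give, so 0 calls do not show equal levels. The median log2 difference of the respiratory chain genes was 0.01. Their summed level was 12157 ± 456 CPM (SD, n = 3) in acceptors and 12156 ± 804 CPM (SD, n = 3) in the control.

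Donors and acceptors at 0 min differed in 8 of the 91 genes, with 22.8% of all genes called and 10.7% called lower. Ndufs4 was higher in donors, and Atp5g2, Ndufa12, Ndufaf4, Sdha and Cox6a2 were again lower. Ndufa5, an accessory subunit of complex I, and Ndufv1, the subunit that binds NADH, joined them, with log2 differences of −0.72 ± 0.25 and −0.70 ± 0.24 (log2, SE), at an edgeR adjusted p of 0.0322 and 0.0319. This comparison shares the donor libraries with the one against the control and is not a second experiment. Leaving out donors at 0 min replicate 3 left 4 calls, Atp5g2, Ndufa10, Ndufaf4 and Ndufs4, leaving out acceptors at 0 min replicate 1 left 5, and leaving out donors at 0 min replicate 1 gave 16.

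Averaged over the 6 times, donors were lower than acceptors in 53 of the 91 genes and higher in 3. The share called in either direction, 61.5%, was near the 62.6% of all genes, but the directions were split unevenly: 58.2% of the respiratory chain genes were called lower, against 33% of all genes, and 3.3% were called higher, against 29.5%. The median log2 difference was −0.27, against −0.08 for all genes. In 51 of the 91 genes the donor mean was below the acceptor mean at all 6 times, compared with 31.2% of all genes, and in 4 it was above at all 6, compared with 28.1%. Donors were lower in 28 of 47 complex I genes tested, 3 of 4 in complex II, 4 of 8 in complex III, 6 of 15 in complex IV and 12 of 17 in complex V. In none of the 91 genes was every donor library below every acceptor library, or every one above, as was the case for 3.51% and 5.7% of all genes.

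**Figure D3:**
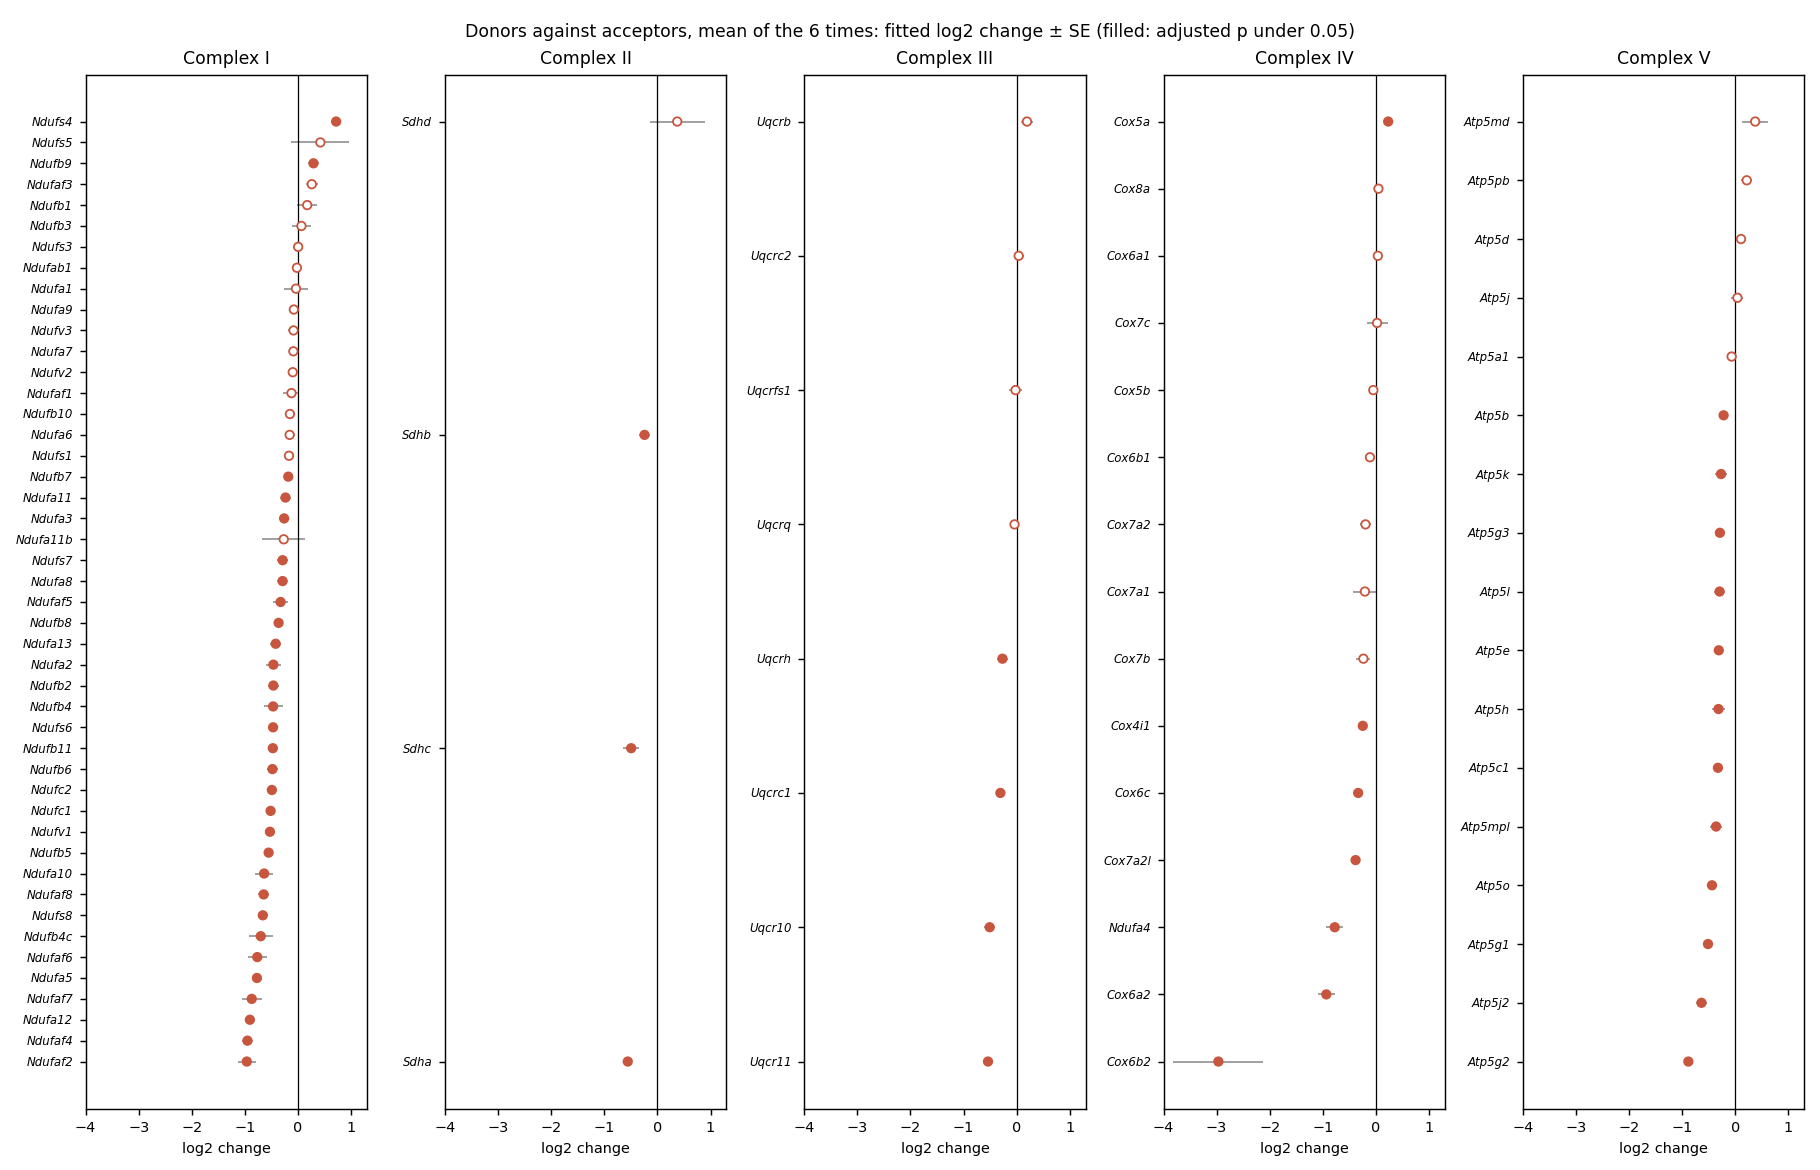
Fitted log2 difference of donors from acceptors, mean of the 6 times, for the genes reported (horizontal axes; bars, SE; filled points, adjusted p under 0.05), by complex. Filled points lie left of 0 except Ndufs4, Ndufb9 and Cox5a; the value of Cox6b2 rests on few reads and is no measure of its size.

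In complex I, some core subunits passed the test and others did not. Ndufs8, an iron-sulfur subunit, averaged 50.1 CPM over donor libraries and 79.3 CPM over acceptor libraries (log2 −0.66 ± 0.09, SE; edgeR adjusted p = 1.354e-07). Ndufv1 was lower by 0.53 and Ndufs7 by 0.29 on the log2 scale. Ndufs1 with −0.17 ± 0.09, Ndufv2 with −0.10 ± 0.08 and Ndufs3 with 0.00 ± 0.07 (log2, SE) did not pass the test. Thus 3 of 7 core subunits were called lower, beside 18 of 30 accessory subunits. The pseudogene-annotated Ndufb4c is also among the complex I rows called lower.

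Of the 8 complex I assembly factors 6 were called lower, and the median over all 8 was −0.71 on the log2 scale. Ndufaf4 had a lowest, median and highest level of 4.69, 8.70 and 12.2 CPM in donors and 12.1, 16.8 and 25.4 CPM in acceptors. In 17 of 18 donor libraries it lay below the lowest acceptor library (log2 −0.95 ± 0.10, SE; edgeR adjusted p = 7.291e-10). Ndufaf2 was lower by 0.97 ± 0.17, Ndufaf7 by 0.87 ± 0.19, Ndufaf6 by 0.77 ± 0.18 and Ndufaf8 by 0.65 ± 0.10 (log2, SE). Ndufaf5 was called at −0.33 but lost its call under 22 of 46 alternatives, and Ndufaf1 with −0.12 and Ndufaf3 with 0.26 did not pass the test. Ndufab1, the mitochondrial acyl carrier protein that also sits in complex I, was at 41.7 CPM in donors and 42.4 CPM in acceptors.

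Among accessory subunits of complex I, Ndufa12 and Ndufa5 had the largest lower values. Ndufa12 had a lowest, median and highest level of 37.7, 54.7 and 73.0 CPM in donors and 61.0, 94.5 and 185 CPM in acceptors (log2 −0.91 ± 0.10, SE; edgeR adjusted p = 1.255e-09). All 18 donor libraries lay below the acceptor median. Ndufs4 was the reverse, with 66.9, 90.3 and 124 CPM in donors and 36.9, 55.6 and 85.9 CPM in acceptors (log2 0.72 ± 0.09, SE; edgeR adjusted p = 6.234e-08). For it 12 of 18 donor libraries lay above the highest acceptor library. Ndufb9 was also called higher, at 0.29 ± 0.10 (log2, SE), but its sign turned when libraries were scaled to total counts. The other large positive fitted values, 0.42 ± 0.55 for Ndufs5, 0.37 ± 0.52 for Sdhd and 0.37 ± 0.25 for Atp5md (log2, SE), did not pass the test.

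In complex II the catalytic subunit Sdha had a lowest, median and highest level of 64.5, 87.1 and 120 CPM in donors and 105, 126 and 147 CPM in acceptors (log2 −0.56 ± 0.07, SE; edgeR adjusted p = 2.149e-08). In 17 of 18 donor libraries it lay below the lowest acceptor library, and its spread within groups, an SD of 0.18 on the log2 scale, was among the 3 smallest of the genes tested in the set. Sdhc was lower by 0.49 ± 0.16 and Sdhb by 0.24 ± 0.10 (log2, SE), the second losing its call under 17 of 46 alternatives.

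In complex III, Uqcr11 was lower by 0.54 ± 0.10, Uqcr10 by 0.51 ± 0.11, the core protein Uqcrc1 by 0.31 ± 0.08 and the hinge protein Uqcrh by 0.27 ± 0.10 (log2, SE). The Rieske protein Uqcrfs1, which carries the iron-sulfur centre, had 56.8 CPM in donors and 57.7 CPM in acceptors and was not called (edgeR adjusted p = 0.903). Uqcrq, Uqcrc2 and Uqcrb were not called either.

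In complex IV most common subunits did not pass the test with the TMM factors. Cox6a1, Cox8a, Cox5b, Cox6b1, Cox7a2 and Cox7b were not called, and their fitted differences lay between −0.24 and 0.05 on the log2 scale. Cox4i1 was lower by 0.25 ± 0.09, Cox6c by 0.34 ± 0.09 and Cox7a2l by 0.38 ± 0.09 (log2, SE). Larger values belonged to Ndufa4, at −0.78 ± 0.16, and Cox6a2, at −0.94 ± 0.16 (log2, SE). Cox5a was called higher by 0.23 ± 0.09, a sign that turned under scaling to total counts. Under that scaling Cox6a1 and Cox8a turned negative too and were called lower. Cox6b2 was called lower on at most 10 reads in any donor library and at most 25 in any acceptor library, so its fitted value is not given as a size, and Cox7a1 and Cox7c were not called.

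In complex V the 3 c-ring genes were all lower in donors but by different amounts. Atp5g2 had a lowest, median and highest level of 75.2, 106 and 146 CPM in donors and 122, 196 and 273 CPM in acceptors (log2 −0.89 ± 0.09, SE; edgeR adjusted p = 1.384e-10), with 17 of 18 donor libraries below the lowest acceptor library. Atp5g1 was lower by 0.51 ± 0.10 and Atp5g3 by 0.29 ± 0.08 (log2, SE). The catalytic beta subunit Atp5b was lower by 0.22 ± 0.08, while its partner Atp5a1 had 278 CPM in donors and 292 CPM in acceptors and was not called (edgeR adjusted p = 0.471). Of the rest, Atp5j2 was lower by 0.64 ± 0.10, the peripheral stalk subunit Atp5o by 0.44 ± 0.09, the rotor subunits Atp5c1 by 0.33 ± 0.07 and Atp5e by 0.31 ± 0.07 (log2, SE), and no gene of complex V was called higher. Differences between subunits of one complex were not themselves tested.

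Summed over each complex, the donor mean lay below the acceptor mean, a difference that was not tested, and the populations overlapped. All 92 genes summed to 10773 ± 1241 CPM (SD, n = 18) in donors and 12594 ± 1504 CPM (SD, n = 18) in acceptors. Complex I genes summed to 3283 ± 400.3 CPM and 3982 ± 609.8 CPM, complex II genes to 412 ± 49.9 CPM and 527 ± 75.5 CPM, and complex V genes to 2873 ± 329 CPM and 3419 ± 339 CPM (SD, n = 18 each). Complex III genes summed to 1100 ± 125 CPM and 1246 ± 170 CPM, and complex IV genes to 3105 ± 370.03 CPM and 3420 ± 405 CPM (SD, n = 18 each). No p is given for these sums, since they were formed over chosen genes. TMM factors were 0.829 to 0.927 in donors and 0.883 to 1.23 in acceptors, so the size of the gap rests on the scaling: with total counts alone the 92 genes summed to 9468 CPM in donors and 14010 CPM in acceptors.

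**Figure D4:**
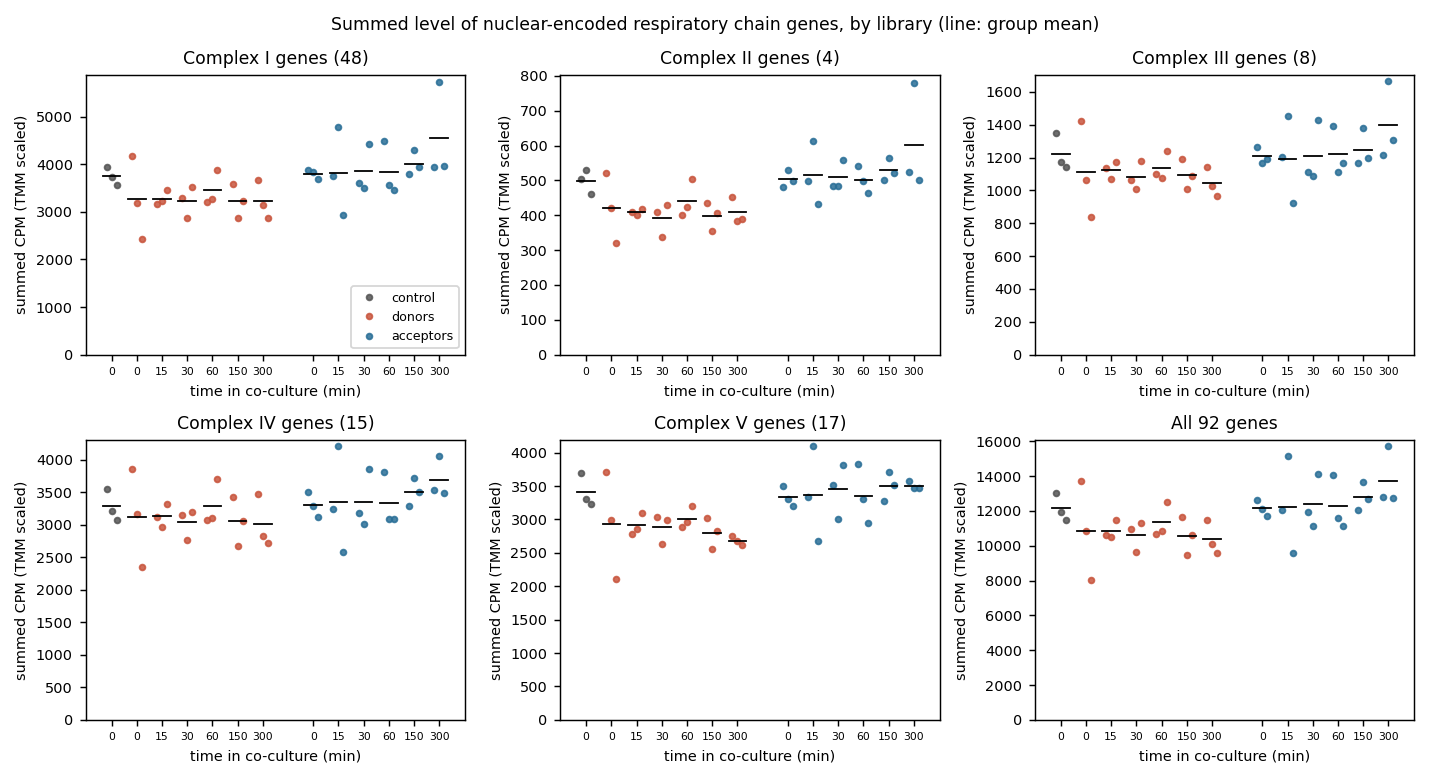
Summed level in CPM (vertical axes, from 0) of the genes of each complex and of all 92 genes, in each library by time in co-culture (horizontal axis, min); points are libraries and lines are means of 3. Donor means lie below acceptor means at each time in the panel of all genes, between 10377 and 11334 CPM against 12157 to 13735 CPM, and the libraries overlap.

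The course of co-culture was asked next. No respiratory chain gene passed the test for a change with time: 0 were called in the edgeR F tests over the 6 times in donors, in acceptors, or for a difference between the 2 courses, and 0 had an unadjusted p under 0.05. Of all genes 0%, 0.0153% and 0.0153% were called in these tests, with 252, 461 and 195 unadjusted p-values under 0.05. Those numbers are below the share of 0.05 that 13034 genes without a difference would give. The 0 calls therefore do not show that levels stayed constant. Against 0 min of the same population, 0 of the 91 were called at 15, 30, 60, 150 or 300 min, with 0 to 2 unadjusted p-values under 0.05 in donors and 0 to 6 in acceptors. The background was 0% at each time in donors, and 0%, 0%, 0.00767%, 0.0153% and 0.00767% in acceptors. DESeq2 and limma voom called 0 of the 91 in each of these tests too, and over all genes DESeq2 called 20 in the test over the 6 times in donors and 35 in acceptors. Atp5g2 is given as an example: donor means were 107, 106, 109, 106, 109 and 104 CPM from 0 to 300 min.

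At single times, 10 genes were called between donors and acceptors at 15 min, 9 at 30 min, 9 at 60 min, 10 at 150 min and 24 at 300 min. These are 11%, 9.89%, 9.89%, 11% and 26.4% of the 91 genes, with 9.89%, 8.79%, 8.79%, 11% and 26.4% called lower. The background was 21.9%, 22.6%, 22.2%, 22.1% and 23% of all genes called, and 10.2%, 10.8%, 9.69%, 10.2% and 11.6% called lower. Ndufs4 was the 1 gene called higher at 15, 30 and 60 min, and none was called higher at 150 or 300 min. Atp5g2 and Ndufa12 were called lower at all 6 times, and Ndufaf4 at all but 30 min. Sdha was called lower at 0, 15, 30 and 150 min. The 24 genes at 300 min included Atp5g1, Ndufa2, Ndufs8, Ndufv1, Uqcr10, Uqcr11 and Cox4i1.

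These counts depended on single libraries. At 300 min the count was 9 without the 4 libraries with the fewest genes detected, of which 1 is a donor and 1 an acceptor library at 300 min, 11 without acceptors at 300 min replicate 2, and 12 and 7 without donors at 300 min replicates 2 and 3. It was 4 at 15 min without donors replicate 1 or 2 or acceptors replicate 2, and 5 at 30 min without donors replicate 2. It was 4 and 5 at 60 min without replicate 1 of acceptors and of donors, and 5 and 6 at 150 min without replicate 2 of acceptors and of donors. With the 2 groups alone in the fit at 300 min it was 1, Ndufa12. At 30 and 150 min the counts were 17 and 21 without the same 4 libraries, while the mean of the 6 times gave 57 calls, 53 of them lower.

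**Figure D5:**
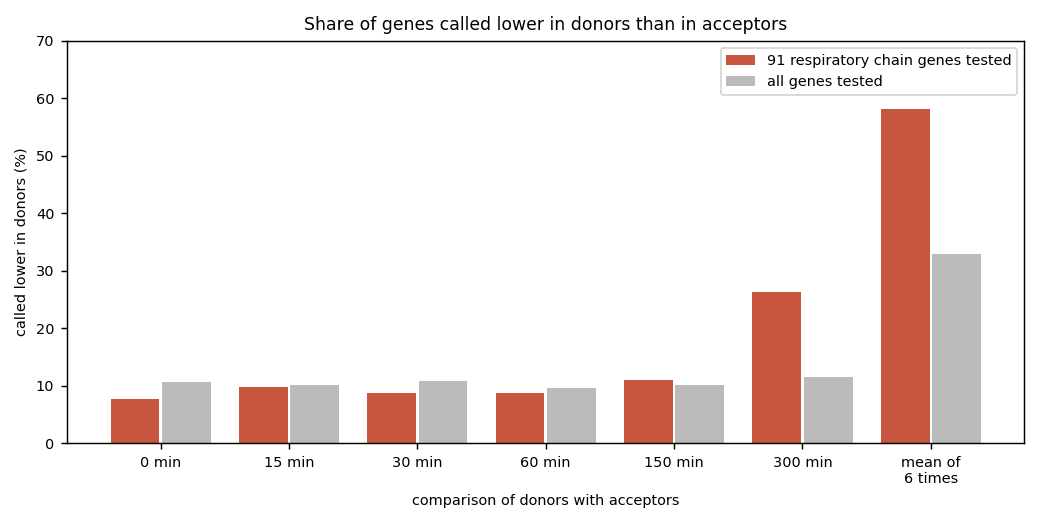
Share of genes called lower in donors than in acceptors (vertical axis, percent, from 0) at each time and for the mean of the 6 times, for the 91 respiratory chain genes and for all genes tested. The bars of the respiratory chain genes stand at 58.2% against 33% for the mean of the 6 times. From 0 to 150 min they stand at 7.69%, 9.89%, 8.79%, 8.79% and 11%, against 10.7%, 10.2%, 10.8%, 9.69% and 10.2%. At 300 min they stand at 26.4% against 11.6%.

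Genes around the respiratory chain were counted from lists, beside the same background of 33% called lower and 29.5% called higher over the 6 times. With libraries scaled to total counts that background was 49.9% lower and 17.3% higher, and each list's counts under that scaling are to be read against it. Of 78 mitochondrial ribosomal protein genes, which make the translation machinery for the mitochondrially encoded subunits, 42 were lower in donors and 10 higher, with a median log2 difference of −0.27. Of 18 tricarboxylic acid cycle genes 8 were lower and 5 higher, and 13 lower and 0 higher under total-count scaling. Among them Suclg2, a subunit of succinyl-CoA ligase, had a log2 difference of −2.54 and Idh3a, a subunit of isocitrate dehydrogenase, −1.39, whereas the pyruvate dehydrogenase subunit Pdhb had 0.51. Of 9 electron carriers and other dehydrogenases that feed ubiquinone, 3 were lower and 4 higher, the latter with cytochrome c (Cycs, 0.59), mitochondrial glycerol phosphate dehydrogenase (Gpd2, 1.04) and sulfide quinone oxidoreductase (Sqor, 1.06). Under total-count scaling 5 carriers were lower and 2 higher, and 62 mitochondrial ribosomal protein genes lower and 3 higher.

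Assembly factors outside the set split in both directions. For complexes III and IV, 9 of 23 were lower and 7 higher, with Uqcc2 at −0.94 and Cox17, a copper chaperone, at 1.51 on the log2 scale. For complexes I, II and V, 7 of 14 were lower and 4 higher, with Nubpl at −1.18 and Sdhaf2 at 0.77. Of 14 regulators tested 4 were higher and 3 lower: Gabpa (1.03), Gabpb1 (0.60), Yy1 (0.67) and the mitochondrial helicase Twnk (0.90) were higher, and Tfb1m (−1.04), Polrmt (−0.46) and Polg (−0.37) lower. Nrf1, Tfam and Esrra were not called. Total-count scaling, with the background of 49.9% lower and 17.3% higher, turned these counts to 12 lower and 2 higher, 8 lower and 1 higher, and 5 lower and 3 higher, with Gabpb1 no longer called.

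HIF-linked genes were higher in donors in 7 of 8 tested, with a median log2 difference of 0.50, and in 3 of 8 under total-count scaling, which moved that median to 0.16. The 3 were Bnip3, Egln3 and Higd1a. Bnip3, a mitophagy receptor, averaged 310 ± 165 CPM (SD, n = 3) in donors at 0 min, 22.7 ± 0.95 CPM (SD, n = 3) in acceptors at 0 min and 25.8 ± 2.27 CPM (SD, n = 3) in the control. Its log2 difference was 3.59 ± 0.29 against the control and 3.49 ± 0.12 against acceptors over the 6 times (log2, SE), at an edgeR adjusted p of 6.698e-11 and 2.261e-22. Egln3, an oxygen-sensing prolyl hydroxylase, had 3.16 ± 0.77 and 3.23 ± 0.32 (log2, SE), and Higd1a, a small complex IV-associated protein, 0.91 ± 0.11 against acceptors (log2, SE). Pdk1 was the gene of the list not called. Ndufa4l2, the member of this list within the respiratory chain set, was under the filter and not tested. It had 14 reads in all, in 4 of the 39 libraries, and 0 in the 18 donor libraries. Its median in acceptors was 0 CPM too.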

How the data were processed

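For 39 libraries of the QuantSeq 3′ mRNA kit, forward version, with 100-base single-end reads per the labels' protocols, 2 tables were deposited: raw counts by gene, and normalized signal. STAR, Partek, DESeq2 and mm10 are listed, without version or role, per the submitters' processing notes. How duplicates, strand and shared reads were handled is not stated there. The deposited normalized signal was checked to equal the counts times 1 factor per library (0.712 to 1.63, relative departure at most 5.33e-15) and was not used further. The number of columns without a sample was 0.

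The counts were fitted with edgeR 4.0.16 (R 4.3.3), using the default expression filter by group (13034 genes, 99.97% of reads), TMM factors, 1 mean per group over all 39 libraries, quasi-likelihood tests and Benjamini-Hochberg adjustment over all genes tested, threshold 0.05. An SE is the size of a log2 difference over the root of its F statistic. The fit was also run on simulated counts with few genes changed and no component shared among genes within a library. That setting differs from these data, so the run does not show how the scaling and tests perform here. Total reads were 8649169 to 15910662, and a floor of 3 counts covers counting error only. With 3 libraries on each side, the smallest exact permutation p is 0.1.

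The genes, lists and named-gene rule were chosen with earlier results of these data known. Named were genes called in a comparison, the highest and lowest in each complex, the 5 largest rises and falls in 2 comparisons, redox and catalytic subunits, isoforms and assembly factors. Alternatives were other scalings, no filter, DESeq2 1.42.0, limma voom 3.58.1, the groups compared alone, a block for the run of library numbers, and leaving out each library. The titles' library numbers fall into 3 runs of 13, each with every group once. Deviations from group means correlated on average by 0.145 within a run and by −0.072 between runs. Taken comparison by comparison, all 3 pairs exceeded 0.1 for acceptors against the control and for donors against acceptors at 15 min, where the block changed no count by over 1.5 times. Single-gene values of 1 gene of the set, which stays in the counts, medians and sums, are not reported here.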

Additional observations from a re-analysis of the deposited data

How the results depend on the processing

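Counts of genes called moved with the scaling, the libraries in the fit and the libraries left out. With total counts the median of all genes in donors shifted from −0.03 to −0.39 against the control and from −0.08 to −0.42 against acceptors over the 6 times, while the respiratory chain medians were −0.57 and −0.61. Called then were 37 genes against the control (0 higher, with 739 higher and 2623 lower among all genes), 38 against acceptors at 0 min, and 40, 46, 36, 48 and 38 at the 5 later times, where 20.5%, 22.1%, 22.6%, 21%, 20.9% and 17.4% of all genes were called lower. Without Rn45s in the totals the 7 counts were 43, 52, 48, 50, 48, 55 and 41, with 20.7%, 22.8%, 23.6%, 22.5%, 23.3%, 21.5% and 18.1% of all genes called lower. Among the genes reported and called in the main fit or under the scaling, signs turned under these 2 scalings over the 6 times for Atp5d (−0.23, −0.26), Atp5j (−0.31, −0.34), Cox5a (−0.12, −0.15), Cox6a1 (−0.30, −0.33), Cox8a (−0.30, −0.32), Ndufb9 (−0.045, −0.071), Ndufs3 (−0.34, −0.37) and Uqcrc2 (−0.31, −0.34). Apart from Cox5a and Ndufb9, these genes were not called in the main fit and were called lower under both scalings. A further 6 genes with total counts, and 8 without Rn45s in the totals, turned sign without a call in either fit. With only the groups compared, 1 gene was called against the control, and 6, 14, 17 and 1 at 15, 30, 150 and 300 min. DESeq2 called 15 at 30 min. Without the 4 libraries with the fewest genes (11951 to 12645, the next having 12649), an alternative added after seeing the data, the counts were 13 against the control, and 17, 21 and 9 at 30, 150 and 300 min. Leaving out 1 library at a time gave 2 to 13 against the control, 4 to 16 against acceptors at 0 min, 51 to 58 over the 6 times, and 4 to 8, 5 to 10, 4 to 8, 5 to 10 and 7 to 25 at the 5 later times in order. The cause was not tested. Over the 6 times, 78 of the 91 genes were called with total counts and also 78 without Rn45s in the totals. Of all genes 67.2% and 68% were called there, and 49.9% and 51.3% were called lower. Of the 56 genes called over the 6 times in the main fit, 50 to 56 stayed called under each alternative that left out no single library. Under both total-count scalings 54 of them stayed called. Replicate numbers follow accession order and pair no samples. The runs of library numbers hold each group once, and the fit with the run as a block gave 7 calls against the control, 8 against acceptors at 0 min, 56 over the 6 times, and 11, 11, 10, 12 and 30 at the 5 later times. Cox6b2 had at most 25 reads in any library, which limits what its values can show.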
